A study of Mus musculus with 8 samples.

Results

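The genes described here are 9 transcription factors of the intestinal secretory lineages, Atoh1, Gfi1, Spdef, Neurog3, Neurod1, Insm1, Pax4, Pax6 and Nkx2-2. They were chosen by symbol, as all features whose gene symbol in the platform annotation is one of these names, and all 9 were on the array, among 15123 named genes. Pax6 and Nkx2-2 have 2 probes each and the other genes 1, which makes 11 of the table's 38467 probes. The data are log2 ratios of whole ileum RNA of LGR5-null (LGR5-/-) mouse embryos over ileum RNA of wild-type (LGR5 +/+) embryos, on 2-colour arrays of 70-base oligonucleotides. LGR5, a Wnt pathway receptor, marks adult intestinal stem cells, and the comparison concerns how cell lineages of the fetal ileum form in its absence. The embryos were at stage E18.5 by the labels, up to day 19 by the design text. They came from 3 heterozygous couples and were matched, each null embryo with a wild-type one, into 4 pairs. Each pair was hybridised on 2 arrays, 1 with the null sample in Cy5 and 1 with it in Cy3, which makes 8 arrays. The sources used here name neither strain, null allele nor sex, nor which pairs share parents. Pairs with the same parents are not fully independent.

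Secretory cells of the gut are goblet cells, which make mucus, Paneth cells, which make antimicrobial proteins, and enteroendocrine cells, which make hormones. In the mouse, Notch signalling keeps progenitors absorptive through Hes1, which represses Atoh1. A progenitor that escapes this signal expresses Atoh1, and Gfi1 and Spdef then act towards the goblet and Paneth fates, while Neurog3 starts the endocrine fate that the other factors carry on. Neurod1, Insm1, Pax4, Pax6 and Nkx2-2 also work in pancreatic islets, and several of them in neurons.

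The values are 1 log ratio per probe and array, so they give no level of any gene, and the labelled tissue could not be checked against its markers. The base of the logarithm is taken as 2 and the numerator as the null sample. The single Lgr5 probe gave ratios of -1.61, -0.92, -1.92 and -1.93 in pairs 1 to 4 and was used to settle that direction, so it does not check it. Array medians lay between -0.002 and 0.002, and the SD of an array's ratios between 0.144 and 0.326. The arrays of a pair correlated across probes at 0.312 to 0.783, where probes are not independent replicates. Some marker genes differed widely between the pairs. In pair 1, the Y-linked genes Eif2s3y and Kdm5d stood at -4.56 and -2.42, against -0.04 to 0.90 and -0.06 to 0.13 in the other pairs. Uty, also Y-linked, was at -0.31 there and between -0.04 and 0.06 elsewhere. A female null embryo set against a male wild-type one would give such ratios, and in pair 1 sex and genotype cannot be told apart. In pair 3, markers of exocrine pancreas, liver and red blood cells had medians of 1.18, 1.95 and 1.44. In pair 4 the same lists had medians of 0.06, 0.37 and 0.23.

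The promoters of 4 members are shown because their ratios carry the pattern described next: Atoh1, Spdef and Gfi1 were low together in pair 1, and Neurog3 lay below 0 on every array. Each sequence is the 250 bases before a transcription start in RefSeq, mouse build GRCm38.p6, written 5' to 3' on the strand of the gene. For Gfi1, with 2 starts in the table, the first listed is shown. Capitals mark an E-box (CANNTG, the site type of basic helix-loop-helix factors such as Atoh1 and Neurog3) or a CCAAT box (CCAAT), on either strand.
Atoh1, chr6:64728875-64729124, plus strand: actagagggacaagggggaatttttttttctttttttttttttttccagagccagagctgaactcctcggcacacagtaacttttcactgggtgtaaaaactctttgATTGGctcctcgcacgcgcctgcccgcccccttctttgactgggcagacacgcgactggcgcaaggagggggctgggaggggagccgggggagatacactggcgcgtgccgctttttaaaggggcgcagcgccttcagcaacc
Spdef, chr17:27728952-27729201, minus strand: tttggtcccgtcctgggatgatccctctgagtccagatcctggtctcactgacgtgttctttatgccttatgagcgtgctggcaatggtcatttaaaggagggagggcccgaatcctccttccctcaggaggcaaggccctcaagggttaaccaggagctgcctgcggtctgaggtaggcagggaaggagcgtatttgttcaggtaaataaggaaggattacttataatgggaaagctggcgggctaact
Gfi1, chr5:107725806-107726055, minus strand: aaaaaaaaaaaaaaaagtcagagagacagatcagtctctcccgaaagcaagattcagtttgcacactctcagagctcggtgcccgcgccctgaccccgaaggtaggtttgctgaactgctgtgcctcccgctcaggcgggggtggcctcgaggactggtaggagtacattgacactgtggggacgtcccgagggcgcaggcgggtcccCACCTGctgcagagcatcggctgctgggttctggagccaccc
Neurog3, chr10:62132840-62133089, plus strand: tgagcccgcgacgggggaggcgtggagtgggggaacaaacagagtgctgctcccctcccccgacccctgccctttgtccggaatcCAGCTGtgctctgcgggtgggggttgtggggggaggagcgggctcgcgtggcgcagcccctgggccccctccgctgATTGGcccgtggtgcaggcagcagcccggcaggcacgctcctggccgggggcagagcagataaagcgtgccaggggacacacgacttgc
The 250 bases of Neurog3 hold 1 E-box, CAGCTG, and those of Gfi1 hold 1, CACCTG. No E-box letters were found in the windows shown for Atoh1 and Spdef. Over both strands an E-box was found in 66.2% of all 32851 windows of this length in the table. The CCAAT box was found upstream of Atoh1 and Neurog3 and in 33.8% of all windows. The N-box (CACNAG), a site type of Hes factors, was in none of the 4 windows shown and in 36.7% of all windows. The motifs overlap nowhere in these windows. Such matches describe letters and are not shown to be bound. The table holds windows for 7 of the 9 members, and Insm1 and Pax4 have none in it.

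Between null and wild-type ileum, 0 of the 9 genes passed the test over 4 pairs (limma moderated test against 0, Benjamini-Hochberg adjustment over 15123 genes, threshold 0.05). The same was true of all genes, of which 0% were called, and of all 36591 probes tested, where 0% were called. Of the 9 genes, 5 had a mean below 0, beside 50% of all genes, and the median of their means was -0.07. At an unadjusted p under 0.05 the test gave 1 of the 9, Neurog3, beside 6.32% of all genes. With 4 pairs, the smallest p that exact sign flipping allows is 0.125. In whole tissue, fewer cells of a type and less RNA per cell cannot be told apart.

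**Figure D1:**
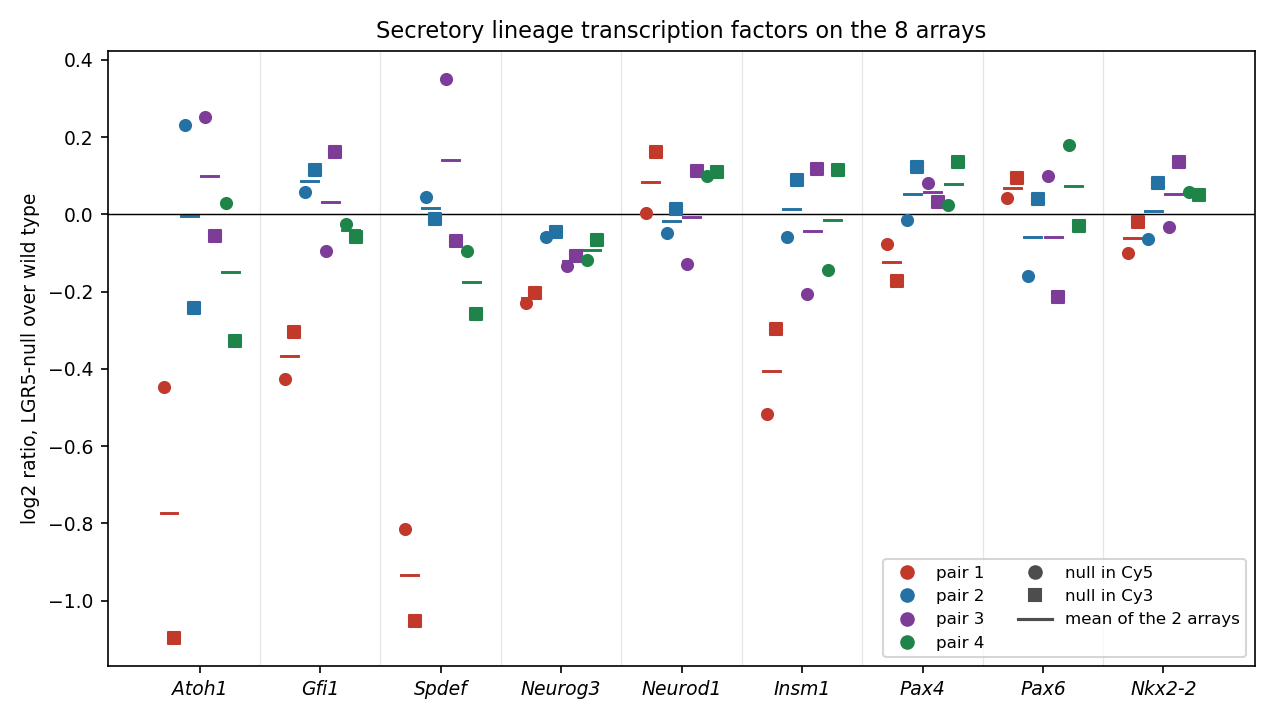
Log2 ratio of each factor on the 8 arrays (null over wild type, vertical axis), with colour for the pair, circles for the null sample in Cy5, squares for the null sample in Cy3 and dashes for the mean of the 2 arrays. In pair 1, Spdef and Atoh1 lie at -0.93 and -0.77 and Insm1 and Gfi1 at -0.41 and -0.37, and Neurog3 lies below 0 on all 8 arrays.

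Atoh1, the basic helix-loop-helix factor that all secretory cells of the mouse gut require, was low in pair 1 and near 0 elsewhere. With the null sample in Cy5 its log2 ratios were -0.45, 0.23, 0.25 and 0.03 in pairs 1 to 4, and with the null sample in Cy3 they were -1.10, -0.24, -0.055 and -0.33. Both arrays of pair 1 lay below all 6 arrays of the other pairs. The pair means were -0.77, -0.006, 0.10 and -0.15, so Atoh1 in the null ileum of pair 1 was at 0.586 of the wild-type level. Over 4 pairs the mean was -0.21 ± 0.39 (SD, n = 4; limma adjusted p = 0.823), with a 95% interval of the ratio from 0.658 to 1.14. Atoh1 was also the member that moved most with the dye. In each pair its ratio was higher with the null sample in Cy5, with a fitted dye effect of 0.22 to either side (limma adjusted p = 0.0204, 3.6% of all probes called). Averaging the 2 arrays cancels that effect. The 4 arrays with null RNA in Cy3 gave a mean of -0.43, below 0 in all 4 pairs. The 4 with null RNA in Cy5 gave 0.016, so the direction depends on the orientation.

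Spdef, an ETS family factor that goblet and Paneth cells need to mature in the mouse, had the widest range of the 9 genes. Its ratios with the null sample in Cy5 were -0.81, 0.04, 0.35 and -0.09 in pairs 1 to 4, and with the null sample in Cy3 -1.05, -0.01, -0.07 and -0.26. The pair means were -0.93, 0.02, 0.14 and -0.18. Pair 1 stood far below the other pairs on both arrays, at 0.524 of the wild-type level, and pair 4 was the next lowest. The mean was -0.24 ± 0.48 (SD, n = 4; limma adjusted p = 0.823), with a 95% interval of the ratio from 0.605 to 1.19.

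Gfi1, a zinc-finger repressor that acts after Atoh1 and holds back the endocrine fate in the mouse gut, was also lowest in pair 1, with a smaller range. Its ratios were -0.43, 0.06, -0.10 and -0.02 in pairs 1 to 4 with the null sample in Cy5 and -0.30, 0.12, 0.16 and -0.06 with the null sample in Cy3. Pair 1 averaged -0.37, a ratio of 0.776, and the other pairs lay between -0.04 and 0.09. The mean of -0.07 ± 0.20 (SD, n = 4; limma adjusted p = 0.866) turned to 0.03 without pair 1. Gfi1 is also expressed in blood cell progenitors. Leukocyte markers had a median of 0.11 in pair 1 and 0.18 in pair 3, and their part in the Gfi1 ratio was not tested.

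Neurog3, the basic helix-loop-helix factor that starts the endocrine lineage, behaved differently from these genes. Its ratios were -0.23, -0.06, -0.14 and -0.12 in pairs 1 to 4 with the null sample in Cy5 and -0.20, -0.05, -0.11 and -0.07 with the null sample in Cy3. All 8 arrays lay below 0, and the 2 arrays of each pair were close to each other. Neurog3 was the single member below 0 in all 4 pairs, as were 8.28% of all genes, and no member was above 0 in all 4, beside 7.31% of all genes. The mean was -0.12 ± 0.07 (SD, n = 4), a ratio of 0.920 with a 95% interval from 0.857 to 0.987. The unadjusted limma p was 0.0280 and the adjusted p was 0.738, so Neurog3 did not pass. Without pair 1 the mean was -0.09 ± 0.03 (SD, n = 3; limma adjusted p = 0.722). Fitting all 8 arrays with a dye term and a random effect of pair gave an adjusted p of 0.317, the lowest of any member in any setting tried.

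Insm1, a zinc-finger factor of endocrine differentiation in gut and pancreas and of developing neurons, was low in pair 1 alone. With the null sample in Cy5 its ratios were -0.52, -0.06, -0.21 and -0.15 in pairs 1 to 4, and with the null sample in Cy3 -0.30, 0.09, 0.12 and 0.11. The pair means were -0.41, 0.015, -0.04 and -0.02, with pair 1 at 0.754 of the wild-type level. The dye moved Insm1 the other way from Atoh1, with a fitted effect of -0.12 (limma adjusted p = 0.0527). The mean was -0.11 ± 0.20 (SD, n = 4; limma adjusted p = 0.823). The 4 arrays with null RNA in Cy5, all below 0, gave -0.23 (limma unadjusted p = 0.0327, adjusted p = 0.418), and the 4 with null RNA in Cy3 gave 0.006. Like Spdef, Atoh1 and Gfi1, markers of enteric neurons and glia were also low in pair 1. Their median was -0.47 in pair 1 and between -0.03 and 0.03 in the other pairs. In pair 1, 13 of the 20 measured genes lay below -0.3, beside 7.74% of all genes. The part of these markers in the Insm1 ratio was not tested.

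The other endocrine factors stayed within narrow limits. Neurod1, a basic helix-loop-helix factor that acts after Neurog3, had pair means of 0.08, -0.02, -0.008 and 0.10, and did not share the low value of pair 1. Its mean was 0.04 ± 0.06 (SD, n = 4; limma adjusted p = 0.836). Pax4, a paired-box factor of serotonin and somatostatin cells, stood at -0.12 in pair 1 and at 0.05 to 0.08 in the other pairs. Its mean was 0.02 ± 0.09 (adjusted p = 0.949). Pax6, a related factor of proglucagon cells, had a mean of 0.006 ± 0.075 over its 2 probes (adjusted p = 0.982). Those probes disagreed in pair 3, at -0.23 and 0.12, and the arrays of the first differed there, at 0.12 in Cy5 and -0.58 in Cy3. Nkx2-2, a homeodomain factor of several endocrine types, had a mean of 0.01 ± 0.05 (adjusted p = 0.945). Its probes averaged -0.006 and 0.03.

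For these 4 genes and for Neurog3 the intervals were narrow. The 95% interval of the ratio was 0.963 to 1.10 for Neurod1, 0.931 to 1.10 for Pax4, 0.934 to 1.08 for Pax6 and 0.948 to 1.07 for Nkx2-2. Spot intensities are not among the values used here, so how far these probes stood above background was not analysed.

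**Figure D2:**
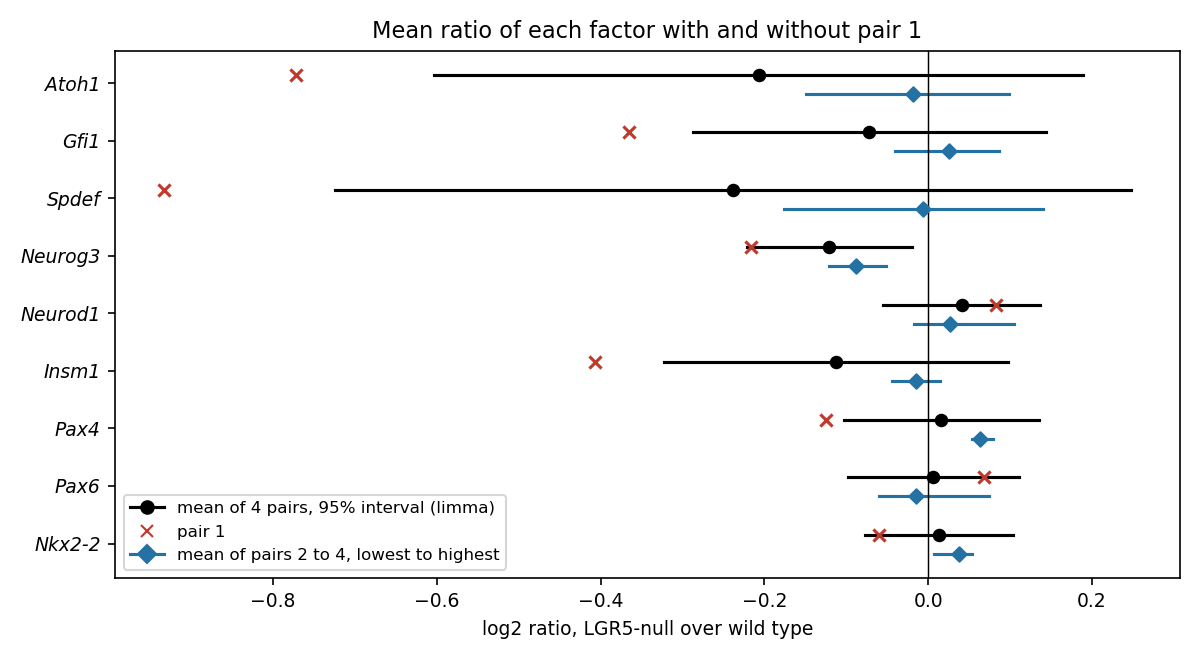
Mean log2 ratio of each factor (null over wild type, horizontal axis) over 4 pairs with its 95% interval from limma (black), the value of pair 1 (red cross), and the mean of pairs 2 to 4 with a line from the lowest to the highest pair (blue). The means of Atoh1 and Spdef move from -0.21 and -0.24 to -0.02 and -0.007 without pair 1, and Neurog3 stays below 0.

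Whether the pairs differed from each other was tested with a model of all 8 arrays that gave each pair its own mean and allowed for the dye. The moderated F-test of limma called 4 of the 11 member probes, beside 22.9% of all probes. They were Spdef (adjusted p = 0.00189), Atoh1 (0.00397), Insm1 (0.0148) and Gfi1 (0.0270). The error in this test is that between 2 arrays of the same RNAs. It therefore says that the RNAs of the pairs differ beyond array error, and nothing about genotype. Without pair 1 it called 0 of the 11 member probes, beside 1564 of all 36591 probes. Without pair 2 it called 3, with Gfi1 lost, beside 5293 of all probes. With the dye term left out it called Spdef alone, beside 5019 of all probes. In pair 1, 7 of the 9 genes lay below 0 on both arrays, beside 35.7% of all genes. The number was 1 in pair 2, 1 in pair 3 and 3 in pair 4, beside 29.5%, 29% and 31.3% of all genes. Pair means below -0.3 were found for 4 of the 9 genes in pair 1 and for 0 in each other pair. The shares of all genes were 7.74%, 1.90%, 3.51% and 2.99% in pairs 1 to 4.

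The place of the members among all genes shows how far pair 1 stood out. In pair 1, 0.688% of the 15123 genes were lower than Spdef, 1.02% lower than Atoh1, 4.56% lower than Insm1 and 5.51% lower than Gfi1. In pair 4 these shares were 8.39% for Spdef and 10.9% for Atoh1. In pairs 2 and 3 both lay in the middle or upper part, with 49.5% to 87.2% of genes lower.

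**Figure D3:**
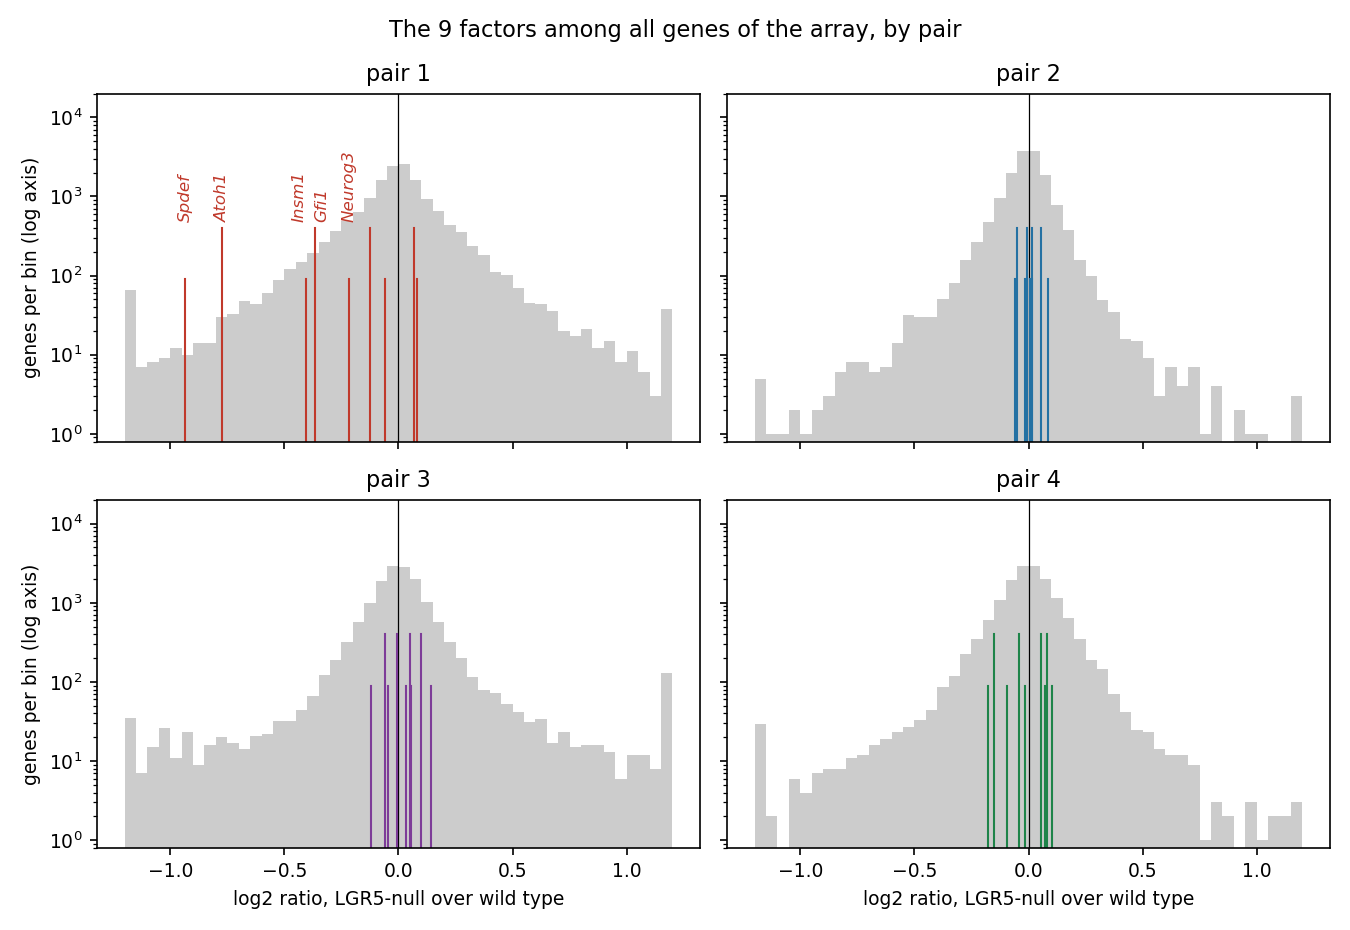
Number of genes per bin of log2 ratio (null over wild type, grey, log axis) in each pair, with a coloured line for each of the 9 factors; the outermost bins also hold all genes beyond them, and the height of a line has no meaning. In pair 1 Spdef and Atoh1 lie in the lower tail, and in pairs 2 to 4 all factors lie between -0.18 and 0.14.

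The gene whose ratios over the 8 arrays were nearest to those of Spdef, the member with the widest range, was Fez1, with a mean absolute difference of 0.10. Car11, Tpsg1, Selenbp1 and Trpm5 followed, with differences of 0.12 to 0.13. In pair 1 these 5 genes stood between -0.93 and -0.77. Among the members Atoh1 was nearest to Spdef, at 0.14, with 8 of all other genes nearer. Gfi1 followed with 857 genes nearer and Neurog3 with 1138. Neurod1 was farthest, with 12035 genes nearer. Gfi1 and Insm1 were close to each other, at 0.086.

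Genes that work around these factors were described by list, with no list test. Of 19 measured Notch pathway genes, the means of 12 were negative, 6 of these in every pair, beside 8.28% of all genes, and 0 passed over all genes. Jag1, a Notch ligand, gave -0.43 ± 0.19 (SD, n = 4; limma adjusted p = 0.691). Dll1, the ligand that secretory progenitors present to their neighbours, gave -0.23 ± 0.12 (0.727) and Dtx1, a Notch regulator, -0.48 ± 0.37 (0.727). All 3 lay below 0 in every pair. Hes1, not named by the rule but given because it represses Atoh1, stood at 0.03, 0.17, 0.19 and -0.004 in pairs 1 to 4. Its mean was 0.10 ± 0.10 (SD, n = 4; limma adjusted p = 0.806). In all, 7 of the 19 means were above 0. The list's median stood between -0.05 and -0.002 in the 4 pairs, while its members went both ways. In pair 1, 3 of the 19 lay below -0.3, beside 7.74% of all genes. The 3 were Jag1 at -0.71, Dtx1 at -0.46 and the receptor Notch1 at -0.58, the last named after its value was seen.

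Of 30 other transcription factors of secretory and endocrine cells, 16 had a mean below 0 and 0 passed over all genes. The list's median was -0.006 in pair 1, where 6 of the 30 lay below -0.3, beside 7.74% of all genes. Elsewhere the list's median lay between -0.003 and 0.026. Creb3l4, a membrane-bound factor of secretory cells, resembled Spdef, at -1.14, 0.13, 0.08 and -0.23 in pairs 1 to 4. Elf3, an ETS factor of epithelia, was at 0.84 in pair 1 and between -0.15 and 0.18 elsewhere. Gfi1b, the erythroid relative of Gfi1, was at 0.94 in pair 3, where erythroid markers had a median of 1.44, and at 0.03 to 0.25 in the other pairs.

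The products of the lineages went separate ways in pair 1. Goblet products had medians of -0.62, -0.08, 0.009 and -0.17 in pairs 1 to 4, the lowest in the pair where Spdef and Atoh1 were lowest. Of 18 measured, 14 had a mean below 0. Retnlb, a goblet cell cytokine-like protein, was at -2.01, 0.03, -0.40 and -0.88 in pairs 1 to 4. Klk1, a kallikrein, was at -1.71, -0.26, -0.20 and -0.80, so neither low value was confined to pair 1. St6galnac1, a sialyltransferase, was above 0 in all 4 pairs, at 0.91 ± 0.46 (SD, n = 4; adjusted p = 0.701). Enteroendocrine products had medians of -0.18, 0.05, 0.04 and 0.02, with 13 of 22 means below 0. Below -0.3 lay 7 of the 22 in pair 1 and 4, 0 and 2 in pairs 2 to 4. The shares of all genes were 7.74%, 1.90%, 3.51% and 2.99% in pairs 1 to 4. Sst, somatostatin, gave -1.41, -0.50, -0.03 and -0.47. Cpe, a prohormone-processing carboxypeptidase, gave -0.21 ± 0.09 (SD, n = 4; limma adjusted p = 0.727). Sst and Cpe were the 2 of 22 below 0 in all 4 pairs, beside 8.28% of all genes. The hormone precursor Tac1 gave 0.21 ± 0.29.

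Paneth products differed among themselves. Their medians were 0.31, 0.04, 0.62 and 0.008 in pairs 1 to 4, and 11 of 13 means lay above 0. Defa20, an alpha-defensin, was at 4.42, -0.28, 2.54 and 1.775 in pairs 1 to 4. Defa21 was at 2.94, -0.006, 1.05 and 0.56 in the same order. Lyz1, lysozyme, was at 1.56, 0.61, 0.89 and 0.40. In pair 1, 2 of the 13 lay below -0.3, beside 7.74% of all genes. These were Nupr1 at -1.42 and Itln1 at -0.83, both named after their values were seen. Itln1, intelectin, was below 0 in all 4 pairs, at -0.39 ± 0.33 (SD, n = 4; limma adjusted p = 0.742). None of the genes named from these lists passed over all genes. The probes of close relatives such as the alpha-defensins may share signal.

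General epithelial markers had medians of 0.08, 0.03, 0.008 and 0.05 in pairs 1 to 4, with 12 of 14 means above 0. In pair 1, 0 of the 14 lay below -0.3, beside 7.74% of all genes. Elf3 is in that list too. Pancreatic islet markers, several of which gut endocrine cells share, had medians of -0.001, -0.03, 0.055 and -0.04. In pair 3, with its exocrine pancreas median of 1.18 and with Ins2, insulin, at 0.67, the 9 factors stood between -0.12 and 0.14. The liver median was -0.17 in pair 1 and the erythroid median 0.09. What part differences of tissue, sex or stage between the embryos of pair 1 have in its low values was not tested.

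**Figure D4:**
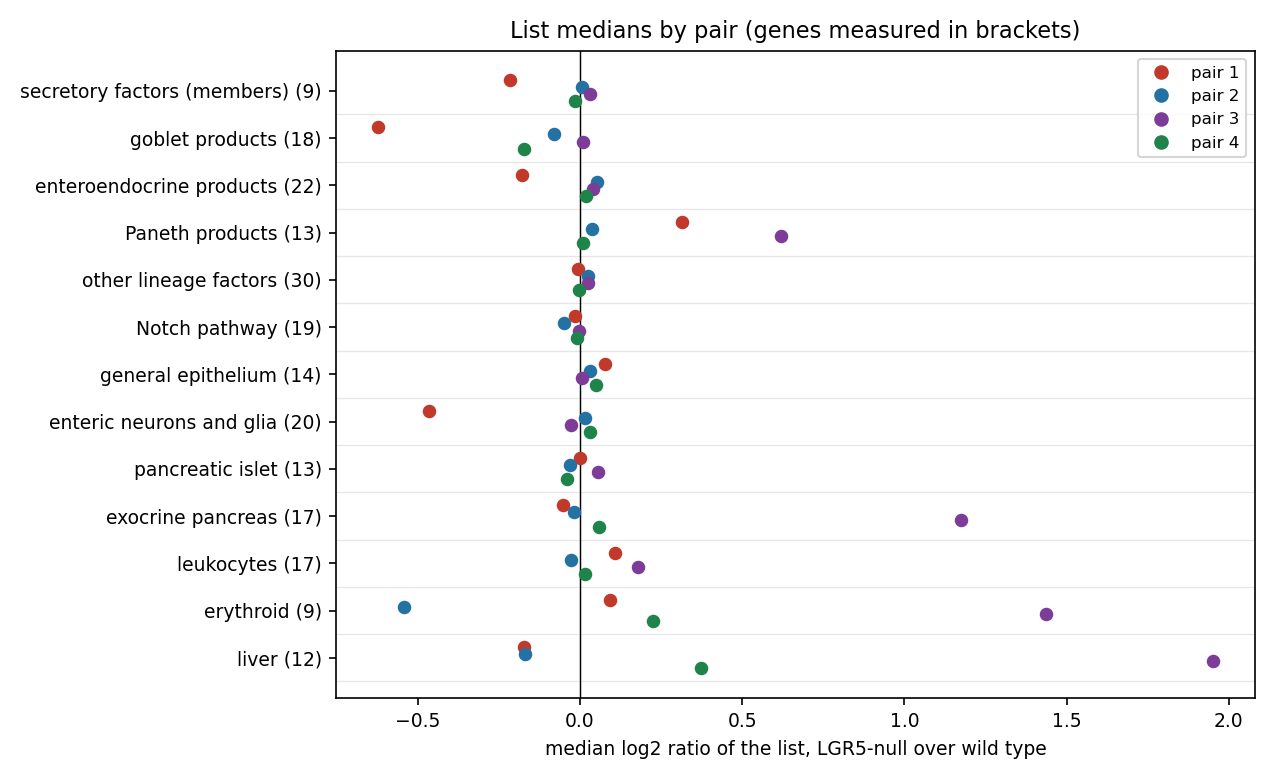
Median log2 ratio (null over wild type, horizontal axis) of each gene list in each pair, with the number of measured genes in brackets. In pair 1 the medians of the factors, goblet products, enteroendocrine products and enteric neuron and glia markers are -0.22, -0.62, -0.18 and -0.47, while that of general epithelial markers is 0.08.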

How the data were processed

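Ileum RNA of 4 pairs of LGR5-null and wild-type embryos was amplified, coupled to Cy5 or Cy3 and co-hybridised, per the labels' protocols. The authors deposited log ratios, taken here as log2. The sources used here do not give their background correction, normalization or base. Values were used as deposited, with 0 missing.

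Symbols came from the platform annotation, which gives 1 symbol for 22941 probes and none for 15526. All 22941 matched RefSeq (GRCm38.p6) by gene identifier. The files name no build. Probes of 4 identifier classes without any named gene (1876) were left out of the tests, which used 36591.

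The 2 arrays of a pair were averaged, probes of a gene were averaged, and pair means were tested across all genes by the moderated test of limma 3.58.1 under R 4.3.3 (2-sided, against 0). Differences between pairs, and the dye effect, were tested across all probes by limma on the 8 arrays.

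Members, lists and tests were chosen with earlier results of these data known. Named from each list were up to 3 genes with the largest absolute mean, without those of the marker lists unless a result turned on them. Likeness is the mean absolute difference over 8 arrays. The alternatives tried left out a pair, used 1 dye orientation, centred or scaled the arrays, added a random block for the pair, or changed the variance or the probes used. The number of arrays limits the precision.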

Additional observations from a re-analysis of the deposited data

Results flagged for a closer look

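A pair was singled out when it lay so far from its closest neighbour that this distance made up nearly the whole spread of the 4 pairs. With independent items, chance does this for about 1 in 20, or 1.9 of the 38 items examined, which overlap. Found were 5, of which 4 lay in pair 1. Insm1 stood at -0.41 in pair 1, against -0.04 to 0.015 in the other pairs. Pax4 stood at -0.12 in pair 1, against 0.05 to 0.08. The median of enteroendocrine products was -0.18 in pair 1, against 0.02 to 0.05, and that of enteric neuron and glia markers -0.47, against -0.03 to 0.03. The median of exocrine pancreas markers was 1.18 in pair 3, against -0.05 to 0.06. The genes of that list with the largest means were also high in pair 4, with Pnliprp1 at 1.46, Ctrb1 at 1.12 and Cela2a at 0.84. The median does not show this, and 1 of the 17 measured lay below -0.3 there, beside 2.99% of all genes. Spdef, Atoh1 and Gfi1, also lowest in pair 1, were not singled out in this way, and pair 4 was their next lowest pair.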

How the results depend on the processing

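None of the 9 genes passed the threshold in 11 alternative settings, with adjusted p from 0.317 to 0.999. Of 99 values, 88 kept the direction of the mean and 11 did not. The random block, the unmoderated test and the median of a gene's probes left each mean unchanged, so they could not alter a direction. Centring the arrays hardly moved the means. The 88 therefore include values that could not have changed. Leaving out 1 pair at a time gave -0.125 to 0.026 for Gfi1, -0.005 to 0.063 for Pax4, -0.016 to 0.0282 for Pax6 and -0.000333 to 0.0376 for Nkx2-2. Gfi1 turned positive without pair 1, Pax6 negative without pair 1 (-0.0143) or pair 4, and Pax4 and Nkx2-2 negative without pair 4. With the null sample in Cy5 alone, Atoh1 turned to 0.0163, Neurod1 to -0.0185 and Nkx2-2 to -0.0355. With it in Cy3 alone, Insm1 turned to 0.006 and Pax6 to -0.0285. Scaling the arrays to a common spread gave -0.00138 for Pax6.

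The random block called 12 probes and 11 genes in all, against 0, and 0 member genes. Leaving out 1 pair gave 1 to 2 members below 0 in every pair, 0 to 2 above 0 in every pair, and 5 to 8 with a mean below 0. The Cy5 arrays alone gave 2 members below 0 in every pair, and the Cy3 arrays alone gave 3 below and 1 above. The median of the member means ran from -0.12 to -0.007 with 1 pair left out. The test between pairs called 8384 probes, 5019 without the dye term, and 1564 to 8928 with 1 pair left out, the lowest without pair 1. The causes were not tested. The test of the ratios against 0 is itself paired by embryo. Beyond it and the random effect of pair, no paired test of null against wild type was run. A fixed effect of pair would set the mean against the error between arrays of the same RNAs, not against that between pairs.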

Other observations

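Beyond the genes named by rule, some genes of the same lists were also far from 0 in pair 1 and are given here because of their values. The goblet products Tff3, Agr2 and Zg16 stood at -1.34, -1.51 and -2.86 in pair 1. Pair 4 was the next lowest for each, with Tff3 at -0.24, Zg16 at -0.61 and Agr2 at -1.20, so the low Agr2 ratio was not confined to pair 1. Other genes of the goblet list, not all of them particular to goblet cells, were above 0 in pair 1. Among them were Clca3a1 at 0.84, Guca2b at 0.79, Muc13 at 0.32 and Galnt3 at 0.26. Of the 18 goblet products, 12 lay below 0 there. Pairs 2 to 4 had 14, 9 and 13 below 0, so this count did not set pair 1 apart. The count below -0.3 did, at 11 of the 18 in pair 1 against 1, 2 and 5 in pairs 2 to 4. Of all genes, 7.74%, 1.90%, 3.51% and 2.99% lay below -0.3 in pairs 1 to 4. The hormones Sct and Pyy were at -1.29 and -0.77 in pair 1, and between 0.06 and 0.34 in the other pairs. Among the lineage factors, Sox4, Foxa1 and Foxa3 stood at -0.66, -0.44 and -0.41 in pair 1. In the other pairs Foxa1 lay between 0.09 and 0.20 and Foxa3 between 0.24 and 0.45. Not every endocrine gene was low there. Gip, an incretin hormone, was at 0.56 and Slc18a1, a monoamine transporter, at 0.48. Tph1, the enzyme of serotonin synthesis in the gut, was above 0 in all 4 pairs at 0.14 ± 0.07 (SD, n = 4; limma adjusted p = 0.727).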
